A study of Mus musculus with 4 samples.

Results

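The genes of the autophagy machinery were followed by RNA-seq in mouse embryos at the late two-cell stage, cultured with or without an inhibitor of MYC. Members were taken by symbol, namely the Atg, Map1lc3, Gabarap and Wipi genes together with 16 named partners, receptors and transcription factors, which gave 41 of the 24411 genes listed in each library. The symbol rule itself uses no measured value. All 4 libraries were made from ICR embryos produced by in vitro fertilization, grown in KSOM with bovine serum albumin and pooled as 10 embryos per library at 36 h post-insemination (hpi). The 2 DMSO libraries received only the solvent, and the 2 inhibitor-treated libraries received 6 µM 10074-G5, an inhibitor of the dimer that MYC forms with its partner MAX. Treatment started at 3 hpi in the treatment protocol of the labels and at 6 hpi in the series' design text and the study's methods. Each value is the mean over a pool, and RNA stored in the oocyte and RNA newly made by the embryo could not be told apart in it. Fewer contributing cells and less RNA per cell could not be told apart either.

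In autophagy, a double membrane grows around cytoplasm or an organelle and delivers it to the lysosome. A kinase complex around ULK1 starts the process, a lipid kinase complex around Beclin 1 marks the membrane, and ATG9, ATG2, VMP1 and the WIPI proteins bring and bind its lipids. Enzymes related to those of ubiquitination then attach the small ATG8 proteins (the LC3 and GABARAP proteins) to the membrane lipid, where receptors such as p62 tie cargo to them. In the mouse, autophagy is switched on soon after fertilization, and embryos made without oocyte and embryonic ATG5 stop early in preimplantation development.

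The expected counts, the estimates of fragments per gene that RSEM made, summed to between 18206584 and 20718690 per library. They were scaled with TMM factors (between 0.873 and 1.06) and tested with edgeR's quasi-likelihood test over 13549 genes. DMSO replicate 1 stood apart from the other 3 libraries, with a Pearson's r of log2 CPM (counts per 1000000 of the scaled total) of 0.825 to 0.887 with them against 0.912 to 0.931 among them. The DMSO replicates were more than 2-fold apart in CPM in 20 of the 38 tested members (52.6%) and in 42.2% of tested genes. The 10 markers of oocyte-stored RNA summed to 1200 CPM in DMSO replicate 1, 2600 in DMSO replicate 2, and 4570 and 4000 in the treated libraries. The 10 two-cell markers, such as the Zscan4 genes, summed to 1150, 3850, 5350 and 5150 CPM in the same order. Both sums were lowest in the library where many autophagy members were highest, and their part in the results was not tested. The 10 cumulus and granulosa markers summed to at most 8.10 CPM, with Ptx3, Foxl2, Amh and Inha at 0 counts in every library. The 6 sperm markers summed to at most 5.43 CPM, with Prm1 and Tnp2 at 0. The study's methods call the replicates biological without saying whether they came from separate fertilizations, so p-values measure the spread between these libraries, which may be partly technical.

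Most autophagy transcripts were lower in inhibitor-treated embryos. Of the 41 members, 38 passed the filter on low counts, and 27 of these were lower and 11 higher, where 48.5% of all tested genes were lower. The median log2FC of the tested members was -0.80, against 0.04 for all tested genes. In 19 members both treated libraries lay below both DMSO libraries (28.3% of all tested genes did so), and in 5 both lay above (28.9% of all tested genes). With edgeR and Benjamini-Hochberg adjustment, 0 members passed an adjusted p under 0.05 with |log2FC| > 1, as did 0 of the 13549 genes (0%). With an unadjusted edgeR p under 0.05, 8 members were lower (10.1% of all genes tested) and 0 were higher (4.72% of all genes tested). These 8 were Vmp1, Atg3, Atg14, Calcoco2, Gabarapl2, Map1lc3b, Wipi2 and Atg16l1, and they came from the membrane, conjugation, lipid kinase and receptor groups. DESeq2, given the transcript lengths, called 6 members lower and 0 higher, namely the first 6 of that list, out of 29 members with an adjusted p (5.38% of all such genes were called lower and 1.04% higher). Over all alternatives, libraries left out included, the adjusted p of the 8 genes ranged from 0.000347 to 0.992, and further on the adjusted p by DESeq2 is that of the fit with lengths.

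**Figure D1:**
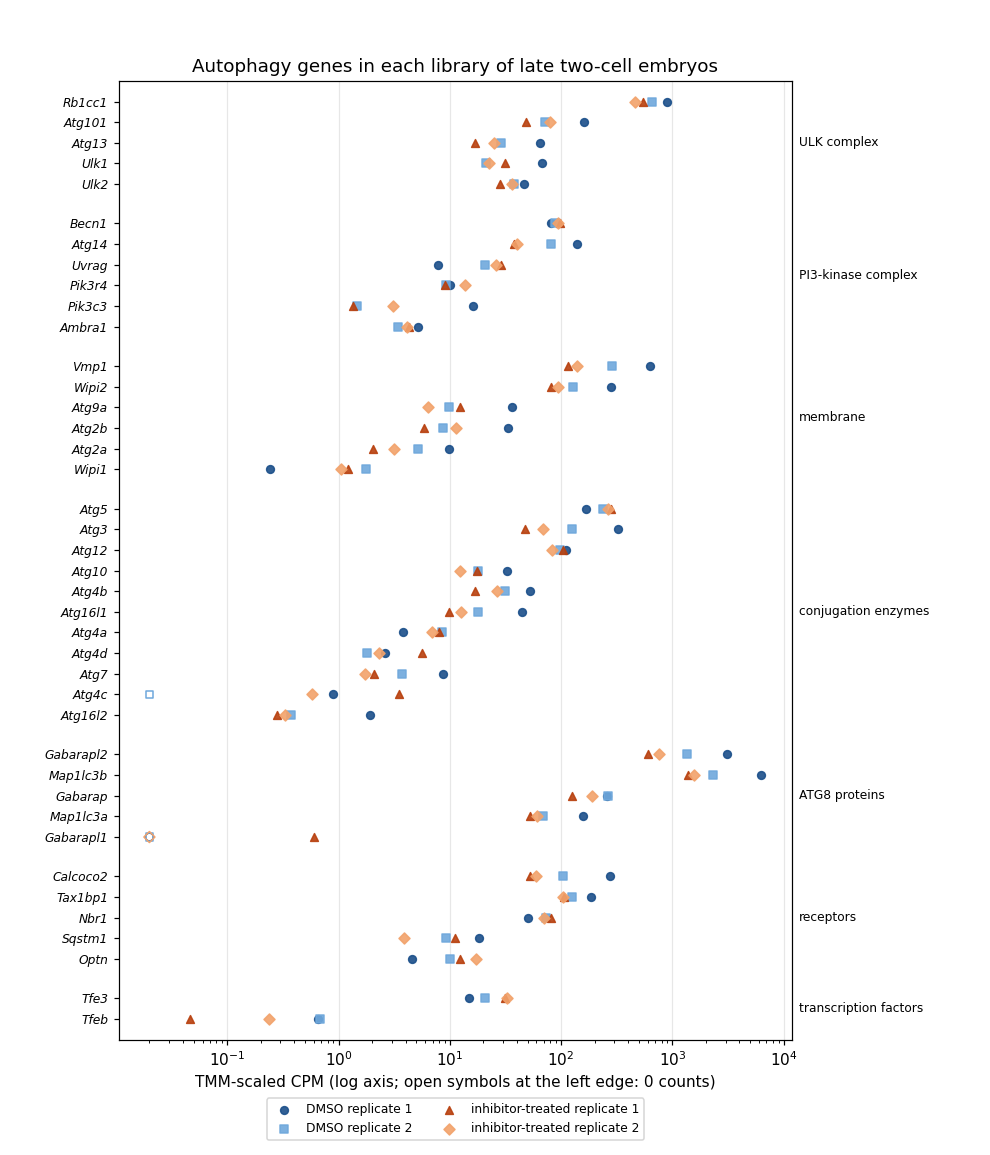
TMM-scaled CPM of the members in each library, on a log axis and grouped by role, with 1 symbol per library and open symbols for 0 counts; Atg9b, at 0 counts in every library, is left out. DMSO replicate 1 (dark circles) is the highest of the 4 libraries in 25 of the 38 tested members and the lowest in 8, and the spread of the members over several orders of magnitude can be seen.

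The difference between the groups depended in size on 1 control library. DMSO replicate 1 was the highest of the 4 libraries in 25 tested members, a position it held in 36.8% of all tested genes, and the lowest in 8, against 40% of all tested genes. It lay farther from the treated libraries than DMSO replicate 2 in 33 of 38 members and in 77.2% of all tested genes. Without it, 25 of the 38 members were lower (47% of all genes) and the median log2FC of the members was -0.23, while without DMSO replicate 2 it was -1.27. Without DMSO replicate 1, 8 members were lower with an unadjusted edgeR p under 0.05 (7.36% of all genes). 7 of these were among the 8 named above, with Gabarap in the place of Atg16l1, and 1 was higher, Atg4c, which was at 0 counts in DMSO replicate 2. The calls by DESeq2 were reduced from 6 to 3 without that library, to Atg3, Atg14 and Vmp1, beside 2.55% of all genes with an adjusted p called lower. Without DMSO replicate 2, DESeq2 called many genes of the whole series in both directions. The edgeR log2FC was then -2.5 for Atg3, -1.82 for Atg14 and -2.3 for Vmp1. Without DMSO replicate 1 these values were -1.1, -1.03 and -1.14. Without inhibitor-treated replicate 1 or 2, 0 members were called, beside 0.0301% and 0.0968% of all genes called lower.

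The ULK kinase complex starts the formation of the autophagosome. All 5 of its genes had a lower mean in treated embryos, with log2FC values between -1.16 and -0.39 (median -0.73, or -0.22 without DMSO replicate 1), and 0 had an unadjusted p under 0.05. Atg13, whose product holds the complex together, had 64.0 and 28.9 CPM in the DMSO libraries and 16.7 and 24.7 CPM in the treated libraries. The groups did not overlap, and the log2FC of Atg13 was -1.16 ± 0.51 (standard error; adjusted p = 0.343 by edgeR), or -0.46 without DMSO replicate 1. Rb1cc1, which encodes the large scaffold FIP200, and Atg101 had the highest FPKM of this complex (fragments per kilobase and 1000000 fragments, a unit comparable between genes), with DMSO means of 109 and 113 and treated means of 77.6 and 70.2. The CPM of Rb1cc1 was 900 and 660 in the DMSO libraries and 542 and 460 in the treated libraries. Its groups did not overlap, and its log2FC was -0.64 ± 0.38 (adjusted p = 0.423 by edgeR), or -0.39 without DMSO replicate 1. For Ulk1, the kinase itself, DMSO replicate 1 was alone. Its CPM was 67.9 in that library, 21.2 in DMSO replicate 2, and 31.4 and 22.3 in the treated libraries. Its log2FC was thus -0.73 ± 0.59 with both controls (adjusted p = 0.546 by edgeR) and 0.35 without DMSO replicate 1. Ulk2, the second kinase, differed least in the complex, with 46.5 and 37.9 CPM against 28.2 and 36.1. Atg101, the partner of ATG13, had 160 and 72.1 CPM against 48.4 and 78.8, and its groups overlapped.

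In the lipid kinase complex, the 6 genes did not move together. Their median log2FC was 0.07, with 3 lower and 3 higher. ATG14 and UVRAG bind Beclin 1 in turn, and each directs the complex to a different membrane, ATG14 to the forming autophagosome and UVRAG to later endosomes. Atg14 had 138 and 80.6 CPM in the DMSO libraries and 38.1 and 40.2 CPM in the treated libraries. Both treated values were under the lower control, and the log2FC was -1.48 ± 0.41 (adjusted p = 0.333 by edgeR and 0.0334 by DESeq2). Against DMSO replicate 2 alone it was -1.03. Uvrag went the other way, with 7.90 and 20.6 CPM against 28.8 and 26.2. Its groups did not overlap either, but the difference was not significant (log2FC 0.95 ± 0.55, adjusted p = 0.421 by edgeR), and the log2FC was 0.43 without DMSO replicate 1. Becn1, the shared core, differed little, with 81.1, 87.8, 97.0 and 93.8 CPM in the same order (log2FC 0.18 ± 0.35, adjusted p = 0.827 by edgeR). Both treated values of Becn1 lay above both controls. Atg14 and Uvrag were set side by side after these values were seen. Since their groups did not overlap and went opposite ways, the separation of their ratio follows from the genes and adds no evidence beyond them. The ratio of Uvrag to Atg14 CPM was 0.0573 and 0.256 in the DMSO libraries and 0.758 and 0.652 in the treated libraries. It thus differed by 2.54 on the log2 scale between the groups, while the log2 ratio had an SD of 1.53 between the DMSO libraries and 0.15 between the treated ones. The smallest p that a two-sided exact permutation test of such a ratio can reach in this design is 0.333. Pik3c3, the catalytic subunit, rested on 1 library, with 273 counts in DMSO replicate 1 and 28, 29 and 65 in the others. Its log2FC of -2.0 ± 1.1 (adjusted p = 0.401 by edgeR) became 0.60 without DMSO replicate 1. Pik3r4, its regulatory subunit (9.14 to 13.6 CPM), and Ambra1 (3.44 to 5.21 CPM) had overlapping groups.

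Among the genes that supply and bind membrane lipids, 5 of the 6 tested were lower, with a median log2FC of -1.28, which became -0.58 when DMSO replicate 1 was left out and -1.93 when DMSO replicate 2 was. Vmp1, a scramblase of the endoplasmic reticulum, had the smallest p of all members. Its CPM was 630 and 285 in the DMSO libraries and 116 and 140 in the treated libraries. Both treated values were below the lower control, and the log2FC was -1.84 ± 0.47 (adjusted p = 0.333 by edgeR and 0.0109 by DESeq2). It was -1.14 without DMSO replicate 1. The span of Vmp1 on chromosome 11 (86583858 to 86683836 of GRCm38.p6) overlaps 3 other annotated genes, with miRNA, snoRNA and tRNA genes left out of the search. The kit does not mark strand, so reads of overlapping genes may be shared. Wipi2, which reads the lipid mark and recruits ATG16L1, had 283 and 129 CPM against 81.3 and 92.9 (log2FC -1.24 ± 0.45, adjusted p = 0.333 by edgeR and 0.0846 by DESeq2). The groups did not overlap, but with DMSO replicate 2 as the only control the log2FC shrank to -0.55. The lipid transfer gene Atg2a had 9.88 and 5.14 CPM against 2.04 and 3.15. Its paralog Atg2b had 33.2 CPM in DMSO replicate 1 and 5.89 to 11.3 CPM in the others, and the lipid scramblase gene Atg9a had 35.9 CPM in that library and 6.39 to 12.4 CPM in the others. Without that library, the log2FC was 0.01 for Atg2b and -0.04 for Atg9a. Wipi1, the sister gene of Wipi2, was low, with 4, 33, 26 and 22 counts, and Atg9b had 0 counts in all 4 libraries, which allows up to 3 counts in each.

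**Figure D2:**
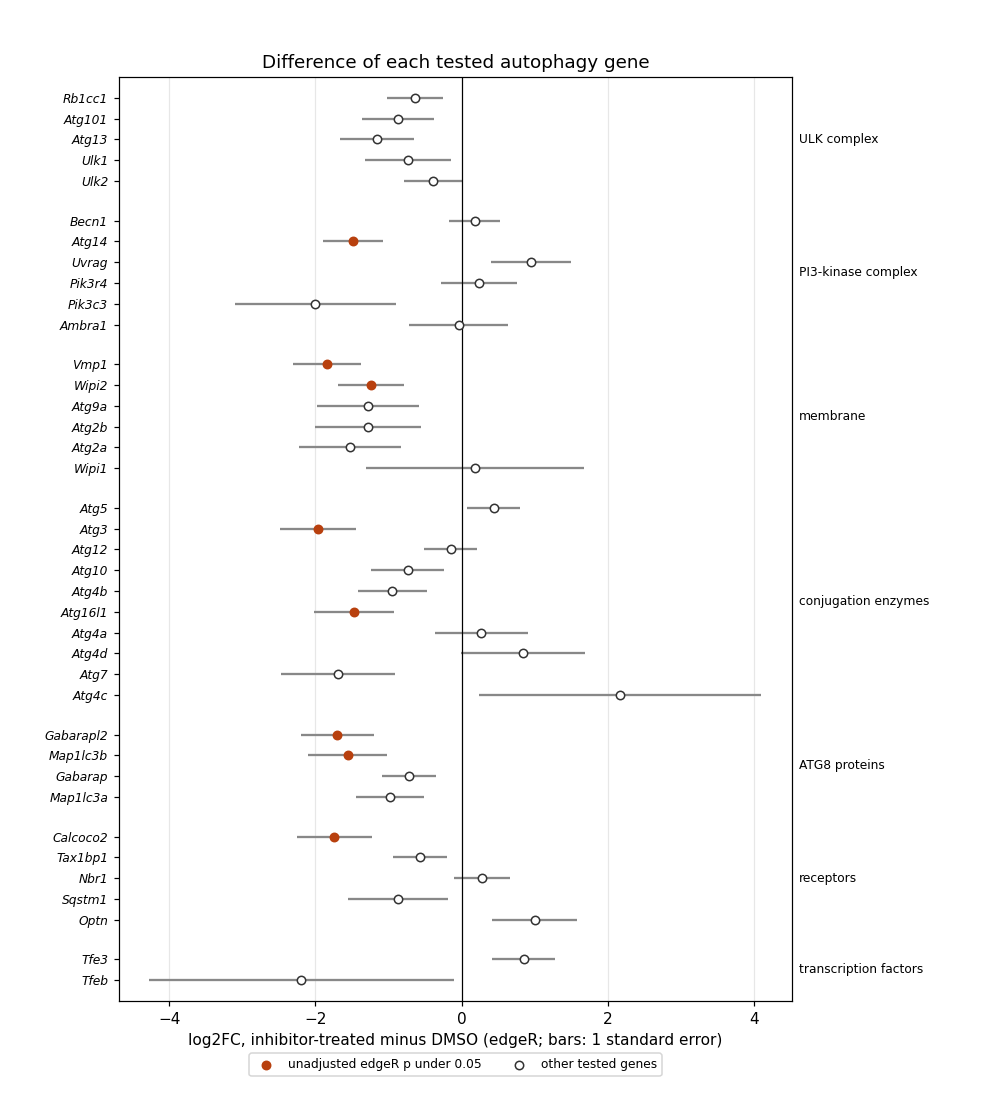
log2FC (inhibitor-treated minus DMSO, edgeR) of the 38 tested members by role, with bars of 1 standard error; filled points mark the 8 members with an unadjusted p under 0.05. The ULK complex and the ATG8 proteins lie wholly below 0, whereas the lipid kinase complex, the conjugation enzymes and the receptors hold members on both sides.

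The conjugation step held the most abundant members. Gabarapl2 and Map1lc3b, which encode the ATG8 proteins GATE-16 and LC3B, had mean FPKM values of 1960 and 1910 and ranked 43 and 47 among the 24411 genes. Together they held 82.0% of the summed FPKM of the members in DMSO replicate 1, 74.0% in DMSO replicate 2, and 67.4% and 68.8% in the treated libraries. Gabarapl2 had 3080 and 1340 CPM in the DMSO libraries and 598 and 758 CPM in the treated libraries. Both treated values lay below both controls, and the log2FC was -1.70 ± 0.50 (adjusted p = 0.333 by edgeR and 0.0173 by DESeq2). Map1lc3b had 6300 and 2320 CPM against 1370 and 1560 (log2FC -1.56 ± 0.54, adjusted p = 0.333 by edgeR and 0.0375 by DESeq2). For both genes the DMSO libraries differed from each other by more than the lower of them did from the treated libraries, by 2.30-fold for Gabarapl2 and 2.71-fold for Map1lc3b, and without DMSO replicate 1 the log2FC was -0.97 and -0.65. RefSeq names 6 pseudogenes of Gabarapl2, and reads that fit a near-identical copy as well do not map uniquely, so its counts are uncertain. The span of Map1lc3b overlaps Zcchc14.

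Gabarap was the one abundant ATG8 gene whose controls lay close together. Its CPM was 258 and 266 in the DMSO libraries, an SD of 5.87 around a mean of 262, and 126 and 191 in the treated libraries. Both treated values lay below both controls, and the log2FC was -0.72 ± 0.37 (adjusted p = 0.381 by edgeR), and -0.73 without DMSO replicate 1. The treated libraries decided its size, since it was -0.41 without inhibitor-treated replicate 1 and -1.05 without inhibitor-treated replicate 2. Map1lc3a, which encodes LC3A, had 156 and 69.2 CPM against 52.8 and 61.2 (log2FC -0.98 ± 0.46, adjusted p = 0.357 by edgeR). Against DMSO replicate 2 alone its log2FC was -0.26. Gabarapl1 was at 0 counts in 3 libraries and had 13 counts in inhibitor-treated replicate 1, so the ATG8 transcripts detected in every library were those of the other 4 genes. Each of these 4 was lower in both treated libraries than in both DMSO libraries, as were 28.3% of all tested genes. Their median log2FC was -1.27, or -0.69 without DMSO replicate 1.

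Of the enzymes that attach ATG8 proteins, 6 of the 10 tested were lower and 4 higher, with a median log2FC of -0.45, or -0.20 without DMSO replicate 1. Atg3, the E2-like enzyme that passes ATG8 proteins to the lipid, had 327 and 126 CPM in the DMSO libraries and 47.2 and 69.1 CPM in the treated libraries. The groups did not overlap, with a log2FC of -1.96 ± 0.52 (adjusted p = 0.333 by edgeR and 0.0121 by DESeq2), and of -1.10 without DMSO replicate 1. The DMSO libraries were themselves 2.61-fold apart in Atg3. Atg7, the E1-like enzyme that feeds ATG3, was scarce. It had 144 and 70 counts against 45 and 36, or 8.62 and 3.71 CPM against 2.09 and 1.72 (log2FC -1.69 ± 0.78, adjusted p = 0.35 by edgeR). Its groups did not overlap. Atg16l1, which places the E3-like complex on the membrane, had 44.3 and 18.0 CPM against 9.93 and 12.5 (log2FC -1.47 ± 0.55, adjusted p = 0.333 by edgeR and 0.0903 by DESeq2). Without DMSO replicate 1 the log2FC was -0.66 for Atg16l1 and -0.95 for Atg7.

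The partners of ATG16L1 in the E3-like complex did not follow it. Atg5 had 167 and 238 CPM in the DMSO libraries and 283 and 266 CPM in the treated libraries, a log2FC of 0.44 ± 0.36 (adjusted p = 0.558 by edgeR) that was 0.22 without DMSO replicate 1. Both treated values lay above both controls. Atg12 had 110 and 96.8 CPM against 104 and 82.7 (log2FC -0.15 ± 0.36, adjusted p = 0.857 by edgeR), and its groups overlapped. As a comparison chosen after the values were seen, the ratio of Atg5 to Atg3 CPM was 0.511 and 1.89 in the DMSO libraries and 5.99 and 3.85 in the treated libraries. That of Atg12 to Atg3 was 0.336, 0.770, 2.20 and 1.20 in the same order. Both ratios were higher in both treated libraries than in both DMSO libraries, and lowest in DMSO replicate 1. For Atg5 over Atg3 this separation follows from the separate groups of each gene, so the ratio adds no evidence beyond them. A ratio of CPM carries the lengths of both genes, so its change and not its level can be read. Atg10, the E2-like enzyme that joins ATG12 to ATG5, had 32.5 and 17.8 CPM against 17.7 and 12.4.

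The ATG4 proteases trim ATG8 proteins before conjugation and release them afterwards. Atg4b, the most active of them and the highest in FPKM here, had 52.2 and 31.6 CPM in the DMSO libraries and 16.9 and 26.3 CPM in the treated libraries (log2FC -0.95 ± 0.47, adjusted p = 0.366 by edgeR), and its log2FC was -0.53 without DMSO replicate 1. The other 3 were low and had overlapping groups. Atg4a lay between 3.83 and 8.52 CPM and Atg4d between 1.80 and 5.66 CPM. Atg4c had 15, 0, 75 and 12 counts, which allow no fold change to be read. Atg16l2, the paralog of Atg16l1, did not pass the filter, with 32, 7, 6 and 7 counts.

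The starts of the members were searched for the E-box that MYC and MAX bind, CACGTG, which reads alike on both strands, in RefSeq windows from 250 bases before to 50 bases after each start (GRCm38.p6). It was found in 4 of the 34 members with a window (11.8%) and in 8.09% of the 27025 genes with one. The CLEAR core that TFEB and TFE3 bind, TCACGTGA, contains the E-box and was found in 1 member, Atg3 (2.94%), against 1.12% of all such genes. These are matches of letters and do not show binding. The members with an E-box were Atg3, Atg14, Atg5 and Atg7, and the Atg7 match lies at an inner start of that gene. Of these 4, Atg5 was the one not lower in treated embryos, while 27 of all 38 tested members were lower. Whether an E-box went with a lower level was not tested. Gabarapl2, Map1lc3b, Vmp1 and Wipi2 held none in these windows, and Calcoco2 and Atg16l1 had no window. For the 3 genes with a match within 120 bases, the sequence from 120 bases before the start through the first 10 bases of the transcript is given 5′ to 3′, with the E-box in capitals, to set 2 of the genes that were lower beside 1 that was not. The Atg3 stretch lies at chr16:45158709-45158838 on the plus strand, that of Atg14 at chr14:47568425-47568554 on the minus strand, and that of Atg5 at chr10:44268219-44268348 on the plus strand. The RefSeq span of Atg5 begins at base 44268322, ahead of the start used for its window, so its E-box lies within the span of the gene.
Atg3: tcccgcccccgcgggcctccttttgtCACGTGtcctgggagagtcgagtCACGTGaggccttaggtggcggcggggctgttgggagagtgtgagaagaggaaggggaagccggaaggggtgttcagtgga
Atg14: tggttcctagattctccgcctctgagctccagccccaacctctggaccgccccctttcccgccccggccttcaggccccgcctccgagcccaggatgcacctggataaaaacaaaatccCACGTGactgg
Atg5: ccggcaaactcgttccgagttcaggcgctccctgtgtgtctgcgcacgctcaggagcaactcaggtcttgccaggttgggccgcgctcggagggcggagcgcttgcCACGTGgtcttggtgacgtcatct
Atg3 held 2 E-boxes, and Atg14 and Atg5 held 1 each, that of Atg14 across the start site itself.

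The cargo receptors bind ATG8 proteins on one side and ubiquitinated cargo on the other. Of the 5, 3 were lower and 2 higher, with a median log2FC of -0.57. Calcoco2, which encodes NDP52, a receptor for damaged mitochondria and bacteria in other cells, was the one with an unadjusted p under 0.05. It had 273 and 104 CPM in the DMSO libraries and 52.7 and 59.8 CPM in the treated libraries, a log2FC of -1.74 ± 0.51 (adjusted p = 0.333 by edgeR and 0.0245 by DESeq2). The groups did not overlap, and against DMSO replicate 2 alone the log2FC was -0.87. The span of Calcoco2 overlaps Ttll6. Its relative Tax1bp1 had 186 and 124 CPM against 106 and 103 (log2FC -0.57 ± 0.37, adjusted p = 0.46 by edgeR), with no overlap, and a log2FC of -0.24 without DMSO replicate 1.

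Sqstm1, which encodes p62, the receptor most often used to follow autophagy, was among the lower expressed members, with a mean FPKM of 5.90. Its CPM was 18.2 and 9.32 in the DMSO libraries and 11.2 and 3.86 in the treated libraries, and the groups overlapped (log2FC -0.87 ± 0.68, adjusted p = 0.534 by edgeR). Nbr1, its older relative, had 50.9 and 73.4 CPM against 80.9 and 70.5 (log2FC 0.28 ± 0.38, adjusted p = 0.73 by edgeR). Optn, a receptor for mitochondria, had 4.61 and 10.1 CPM against 12.4 and 17.1. Its groups did not overlap, at a log2FC of 1.0 ± 0.58 (adjusted p = 0.421 by edgeR), or of 0.56 without DMSO replicate 1. Calcoco2 had the highest mean FPKM of the receptors, 98.8 in DMSO and 33.7 in treated embryos, against 14.1 and 18.5 for Nbr1, and in the treated embryos it was passed by Tax1bp1 with 36.5 FPKM. Calcoco2 had 31.2 and 36.2 FPKM in the treated libraries, so these neighbours did not differ beyond its spread.

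TFEB and TFE3 are related transcription factors that switch on lysosomal and autophagy genes when they enter the nucleus. Tfe3 had 14.8 and 20.5 CPM in the DMSO libraries and 31.2 and 32.7 CPM in the treated libraries. It was higher in both treated libraries than in both controls, at a log2FC of 0.85 ± 0.43 (adjusted p = 0.375 by edgeR), and of 0.65 without DMSO replicate 1. Tfeb was barely detected, with 11 and 13 counts against 1 and 5, too few to read a fold change.

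Set side by side, the median log2FC was -0.64 for the 11 initiation genes (ULK and lipid kinase complexes), -0.85 for the 14 tested conjugation genes (enzymes and ATG8 proteins) and -0.57 for the 5 receptors. The difference between these medians was not tested, and the median centred log2 CPM of each class had an SD between replicates, pooled over the groups, of 0.29, 0.42 and 0.38. Members with an unadjusted p under 0.05 numbered 1 of 11, 4 of 14 and 1 of 5, all lower, beside 10.1% of all tested genes, so the initiation class was at this background. Groups that did not overlap and were lower in treated embryos numbered 4, 9 and 2, beside 28.3% of all tested genes, and those that were higher 2, 1 and 1, beside 28.9%. Without DMSO replicate 1 the medians were 0.13 for initiation, -0.40 for conjugation and -0.24 for receptors, with 5 of 11, 11 of 14 and 3 of 5 genes lower, and without inhibitor-treated replicate 2 they were -0.53, -1.07 and -0.29. Centred on each gene's mean, the median log2 CPM of the conjugation class was 0.81 and 0.02 in the DMSO libraries and -0.59 and -0.31 in the treated libraries, and that of the initiation class was 0.54, -0.03, -0.20 and -0.05. For the receptors it was 0.56, 0.02, 0.25 and -0.29, so that the groups overlapped.

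**Figure D3:**
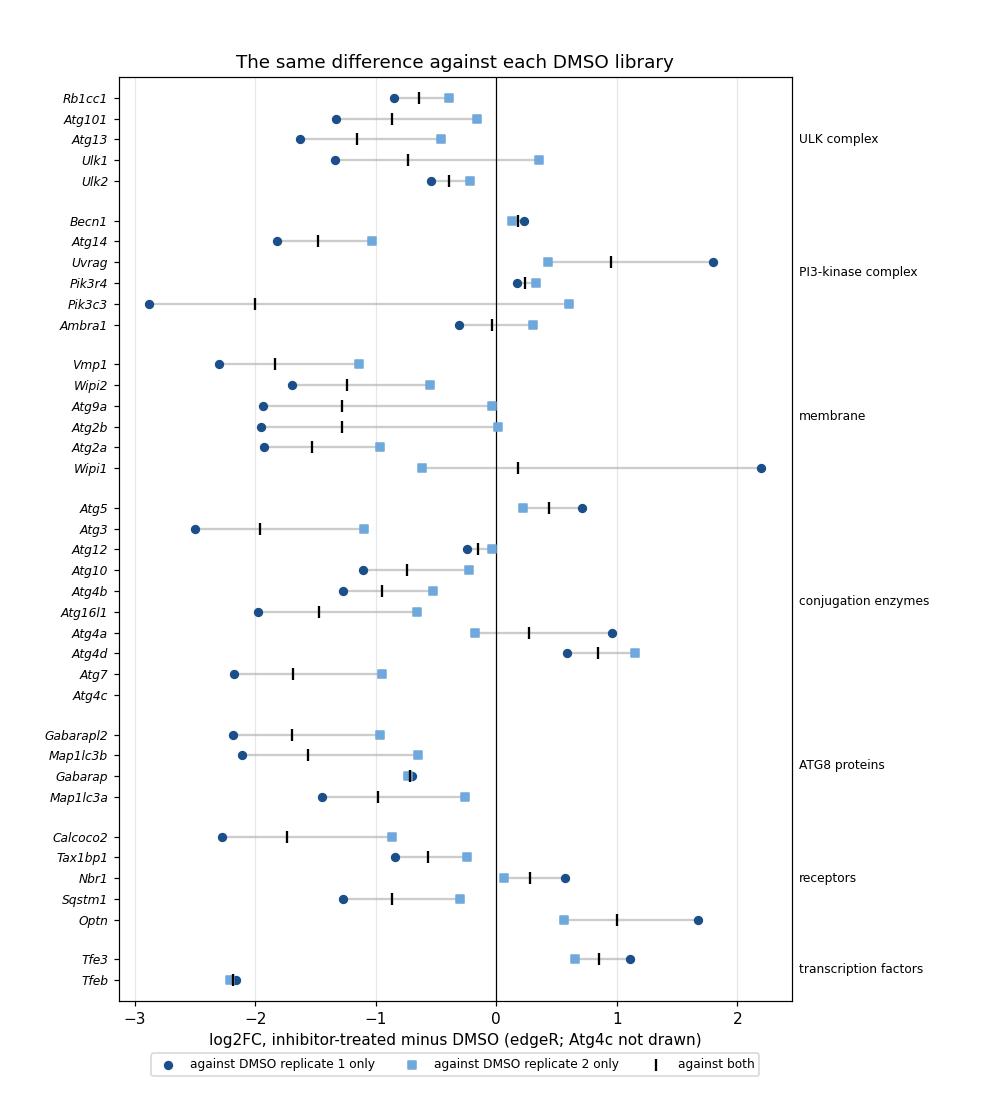
log2FC of the tested members when the treated libraries were set against DMSO replicate 1 only (circles), DMSO replicate 2 only (squares) or both (bars), by edgeR; Atg4c, at 0 counts in DMSO replicate 2, is not drawn. Vmp1, Atg3 and Atg14 stay below -1 against either control, whereas Ulk1 and Pik3c3 change sign.

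**Figure D4:**
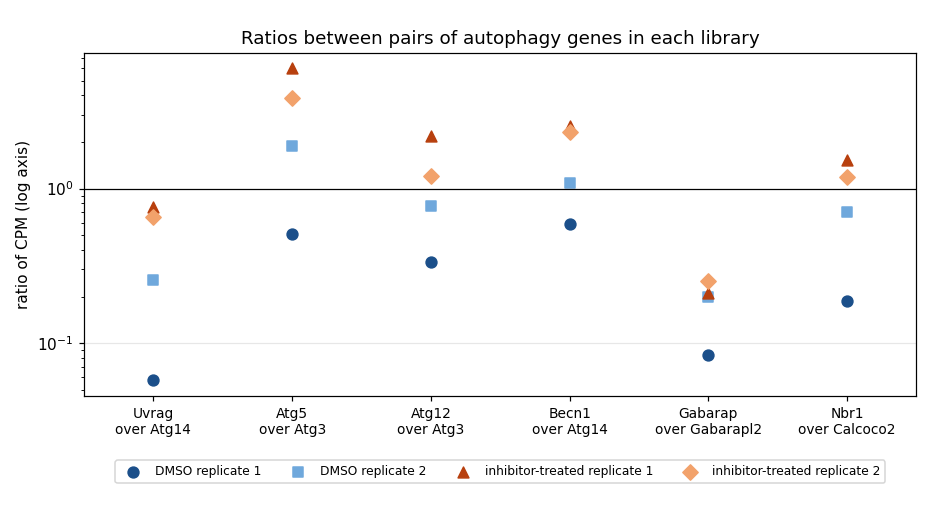
Ratio of the CPM of paired members in each library, on a log axis, with pairs chosen after the values were seen. A ratio of a gene that was higher without overlap to one that was lower without overlap must separate the groups. The ratio of Uvrag to Atg14 goes from 0.0573 and 0.256 in the DMSO libraries to 0.758 and 0.652 in the treated ones, and DMSO replicate 1 is the lowest library in every pair drawn.

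Further genes of the pathway that the symbol rule did not take were read from a list of 36, which covered other membrane factors, fusion with the lysosome, organelle receptors and regulators. Of the 35 tested, 20 were lower and 15 higher, with a median log2FC of -0.31, which became -0.17 when DMSO replicate 1 was left out and 0.20 when DMSO replicate 2 was, so its sign rested on 1 library. With an unadjusted edgeR p under 0.05, 6 were lower and 1, Snap29, was higher, against 10.1% and 4.72% of all tested genes. DESeq2 called 3 of the 29 with an adjusted p, namely Ei24, Bnip3 and Wdr45b, all lower. Of all genes with an adjusted p, 5.38% were called lower and 1.04% higher. Ei24, an endoplasmic reticulum protein needed for autophagosome formation, had the smallest p, with 158 and 84.4 CPM in the DMSO libraries and 36.3 and 42.0 CPM in the treated libraries. Its log2FC was -1.63 ± 0.43 (adjusted p = 0.333 by edgeR), and -1.09 without DMSO replicate 1. Bnip3, a mitophagy receptor, had 1500 and 600 CPM against 301 and 309 (log2FC -1.78 ± 0.50, adjusted p = 0.333 by edgeR), and its log2FC was -0.96 without DMSO replicate 1. Both genes had groups that did not overlap.

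Vps16, a subunit of the tethering complexes of the lysosome, was lower with close controls, at 13.3 and 10.6 CPM against 3.85 and 2.77. Its log2FC was -1.85 ± 0.58 (adjusted p = 0.333 by edgeR), and -1.66 without DMSO replicate 1. Wdr45b, a WIPI relative, had 386 CPM in DMSO replicate 1, 89.3 in DMSO replicate 2, and 67.4 and 65.1 in the treated libraries. Its log2FC was -1.84 ± 0.64 (adjusted p = 0.333 by edgeR), and -0.42 without DMSO replicate 1. Snap29, a SNARE of autophagosome fusion that was named after its values were seen, had 41.3 and 46.1 CPM against 90.2 and 72.7 (log2FC 0.90 ± 0.37, adjusted p = 0.334 by edgeR), and 0.83 without DMSO replicate 1. The fusion genes thus held members on both sides.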

How the data were processed

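The authors aligned read pairs from SMART-Seq libraries of polyadenylated RNA to mm10 with STAR, used only reads with a single place in the genome, and estimated gene expression with RSEM 1.3.3. The deposited expected count is RSEM's unnormalized estimate of fragments per gene. The deposited FPKM is scaled to effective length and library fragments. The TPM deposited by the authors sums to 1000000 per library and served to check the unit. Expected counts were rounded, filtered with filterByExpr (minimum count 10, minimum total 15), scaled by TMM and tested with edgeR 4.0.16 (quasi-likelihood, robust, R 4.3.3) with Benjamini-Hochberg adjustment over 13549 genes. The standard error is |log2FC| divided by the square root of the F statistic. Thresholds were |log2FC| > 1 and an adjusted p under 0.05. CPM values use the TMM factors. Every member is described, with full statistics for those called by DESeq2 or with an unadjusted edgeR p under 0.05 and for 12 core genes, and of the further pathway genes the 4 with the smallest p. Of the 12 core genes, Tfeb is given by counts alone. The members, gene lists and tests were chosen with earlier results of these data known.

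Alternatives were DESeq2 1.42.0 (on the filtered genes, and on genes with at least 1 count with effective transcript lengths), limma 3.58.1 on log2(FPKM + 1) and log2(FPKM + 0.1), DESeq2's size factors or library totals, no filter, a stricter filter (10 counts or more in all 4 libraries), a replicate block, and each library left out. Methods were tested on simulated data in which all libraries had the same spread and none stood apart. That test therefore does not cover a control library like DMSO replicate 1. The floor of 3 counts covers counting error only, since PCR copies were counted.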

Additional observations from a re-analysis of the deposited data

How the results depend on the processing

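Whether members passed the thresholds differed with the tool, the filter and the libraries used. The 0 calls of edgeR became 6 with DESeq2 on the filtered genes, 6 with DESeq2 and transcript lengths and 6 with edgeR without the filter on low counts, the same 6 genes each time, and stayed 0 under limma, other scalings, the stricter filter and the replicate block. Over the libraries left out in turn, called members ranged from 0 to 21 by edgeR and from 0 to 18 by DESeq2, the higher value without DMSO replicate 2 in both cases. In that setting both tools also called many genes of the whole series, in both directions. The 21 and 18 members called there therefore do not show a change particular to autophagy. Members lower at an unadjusted p under 0.05 numbered 13 of 40 without the filter (9.39% of all genes), against 8 of 38 (10.1%), and ranged from 0 without inhibitor-treated replicate 1 (2.05% of all genes) to 22 without DMSO replicate 2 (20.5%). In every fit with all 4 libraries, 0 members were higher at that p, beside 4.72% of all genes in the main fit. Some were higher when either DMSO library was left out, as were more of all genes. The median log2FC ranged from -1.27 to -0.23 for all members, from -0.85 to 0.13 for initiation, from -1.19 to -0.40 for conjugation and from -0.84 to -0.24 for receptors over the libraries left out, always nearest to or past 0 without DMSO replicate 1. The log2FC of Ulk1 ranged from -1.34 to 0.35, the reversed sign without DMSO replicate 1. Over all genes, edgeR called 0, against 429 lower and 83 higher with DESeq2 and lengths, 471 and 95 with DESeq2 on the filtered genes, 479 and 165 without the filter, 32 and 12 with the replicate block, and 2065 and 2148 without DMSO replicate 2. Of the further pathway genes, 7 had an unadjusted p under 0.05, against 11 with DESeq2 on the filtered genes and 3 with limma on log2(FPKM + 0.1), and from 2 to 20 over the libraries left out. The cause of these shifts was not tested. A fit with 1 library in a group assumes that it varies like the other group.

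Same-numbered libraries deviated from their group means with a correlation of -0.034. With 2 libraries a group, this value cannot show whether same-numbered libraries shared a fertilization or a batch. With the replicate block, 0 members were called, 7 members were lower at an unadjusted p under 0.05, and the member median was -0.77. Library totals in place of TMM moved the median of all genes from 0.04 to 0.17 and that of the members to -0.63. Under FPKM or library totals, chosen after the data were seen, 19 members were again lower without overlap. The biological coefficient of variation was 0.557 with 2 libraries a group.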
